A study of Mus musculus with 9 samples.

Results

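The genes described here are 10 interferon-induced GTPases of the mouse, 6 guanylate-binding proteins (GBP: Gbp2, Gbp3, Gbp4, Gbp5, Gbp6 and Gbp7) and 4 immunity-related GTPases (IRG: Iigp1, Irgm1, Irgm2 and Igtp). They were taken by name from a table of 27179 genes and measured by RNA sequencing in spinal cord of C57BL/6 mice, and all 10 passed the filter on low counts. Of the libraries 3 came from mice with experimental autoimmune encephalomyelitis (EAE, an autoimmune model of multiple sclerosis) given oral EHP-101, 20 mg/kg. This group is called EAE+EHP-101, or treated. Of the others 3 came from mice with EAE alone and 3 from Control mice. The design asks which transcripts move when EHP-101, known here by its code only, is given to mice with EAE. The induction of EAE, the clinical scores, the time of sampling, the length of treatment and any vehicle given to the other mice are not stated in the labels.

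GBPs are large GTPases and IRGs are smaller ones, and interferon gamma is their main inducer. It acts through its receptor, the kinases JAK1 and JAK2 and transcription factors that include IRF1. GBPs gather on the membranes around intracellular microbes and help to open them, which exposes microbial products to caspase-11 and other sensors. Iigp1 is an IRG effector that coats the vacuole of Toxoplasma, whereas Irgm1, Irgm2 and Igtp sit on host membranes and hold the effectors inactive there. In the central nervous system microglia, astrocytes and endothelial cells can all make these proteins once lymphocytes release interferon gamma.

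The promoters are shown first, because interferon-activated transcription factors bind short elements near the start of such genes. Of the 10 genes 7 had a RefSeq promoter window (assembly GRCm38.p6, the assembly behind mm10), which runs from 250 bases before to 50 bases after the transcript start. Each line gives the bases just before the start, 110 of them, or 180 for Gbp5, in the 5′ to 3′ direction of the gene. Capitals mark matches to the gamma-activated site (GAS, TTCNNNGAA) and to the core of the interferon-stimulated response element (ISRE, 2 copies of GAAA with 2 bases of any kind between them), both searched on both strands with overlapping matches counted. A further GAS match of Gbp5 lies before the bases shown. Gbp4, Gbp6 and Iigp1 are not shown.
Igtp, chr11:58199446-58199555, plus strand: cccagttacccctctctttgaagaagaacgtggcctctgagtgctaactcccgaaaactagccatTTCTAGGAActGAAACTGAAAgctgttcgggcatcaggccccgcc
Irgm2, chr11:58214867-58214976, plus strand: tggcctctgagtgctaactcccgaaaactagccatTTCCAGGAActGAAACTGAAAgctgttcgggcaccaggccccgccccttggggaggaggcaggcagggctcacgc
Irgm1, chr11:48871421-48871530, minus strand: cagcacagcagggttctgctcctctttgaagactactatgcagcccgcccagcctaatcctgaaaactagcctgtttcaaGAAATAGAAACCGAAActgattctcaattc
Gbp2, chr3:142620553-142620662, plus strand: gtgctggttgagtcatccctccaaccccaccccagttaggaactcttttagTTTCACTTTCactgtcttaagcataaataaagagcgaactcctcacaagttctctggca
Gbp3, chr3:142559934-142560043, plus strand: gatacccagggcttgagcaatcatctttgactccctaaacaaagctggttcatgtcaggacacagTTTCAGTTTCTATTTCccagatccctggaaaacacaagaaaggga
Gbp7, chr3:142530226-142530335, plus strand: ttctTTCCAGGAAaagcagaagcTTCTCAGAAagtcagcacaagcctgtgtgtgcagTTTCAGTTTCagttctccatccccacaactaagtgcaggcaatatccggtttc
Gbp5, chr3:142496754-142496933, plus strand: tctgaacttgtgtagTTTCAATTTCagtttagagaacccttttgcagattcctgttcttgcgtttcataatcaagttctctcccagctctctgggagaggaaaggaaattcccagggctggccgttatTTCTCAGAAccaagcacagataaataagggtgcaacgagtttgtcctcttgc

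All 7 genes had an ISRE match in the window, and 4 of them (Gbp5, Gbp7, Irgm2 and Igtp) also had a GAS match. Over all 32851 promoter windows of the same length 3.44% held the ISRE letters, 8.30% the GAS letters and 0.454% both. The ISRE match lay within 64 bases of the start in 6 of the 7 genes, and 165 bases before it in Gbp5. In Igtp and Irgm2 the GAS and ISRE matches lay side by side, and the pair stood 45 bases before the start of Igtp and 75 bases before that of Irgm2. These neighbouring genes on chromosome 11 also shared an unbroken run of 55 bases further from the start, before the bases shown. The bases shown around the GAS and ISRE pair were nearly the same in both genes as well. Their windows are thus not unrelated sequences, and their pairs of matches are not separate observations. Irgm1, also on chromosome 11, and Gbp3 each held 2 overlapping ISRE matches, and the alternate Gbp3 start further into the gene held none. A match describes these letters and does not show that a factor bound there.

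**Figure D1:**
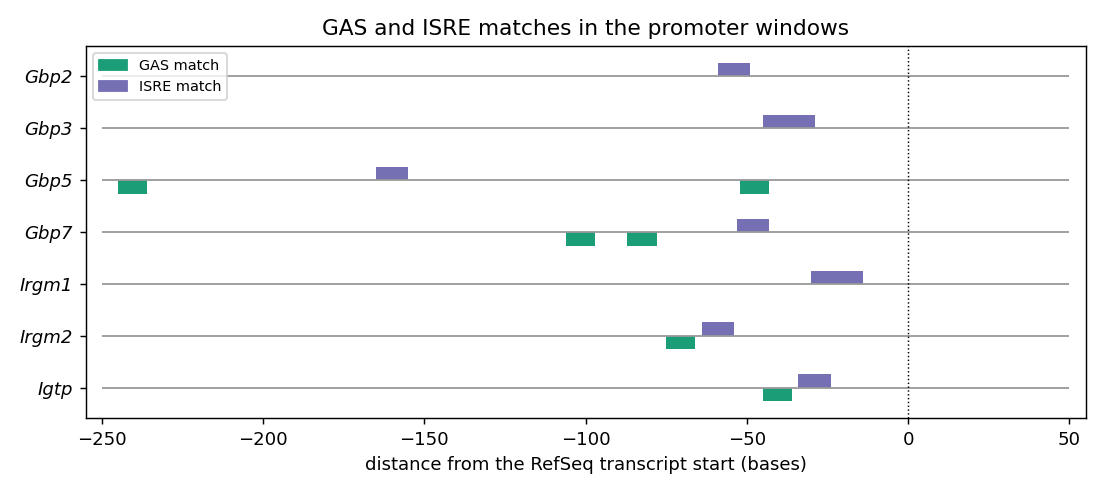
Matches to the GAS and ISRE letters in the RefSeq promoter windows of 7 of the 10 genes, by distance from the transcript start in bases (0, dotted line). All 7 windows hold an ISRE match and 4 also a GAS match, and Irgm2 and Igtp have the 2 kinds side by side.

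The 9 libraries held 30448507 to 32661741 counts. The 10 genes had 46 to 2448 counts each in a library. Neuron markers (Rbfox3, Snap25, Slc6a5, Slc17a6, Chat) summed to 3554 to 4530 CPM (a gene's counts scaled to a common library size, with TMM factors) and oligodendrocyte markers to 26709 to 36600 CPM, as spinal cord holds. Treated replicate 1 was below treated replicates 2 and 3 for each of the 10 genes, and their CPM are therefore given library by library. Control replicate 1 carried 35.2 CPM of skeletal muscle markers against 0.929 to 1.66 CPM elsewhere. The labels name separate samples and no batch, and the p-values cover the spread among these 9 only.

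The first comparison, EAE against Control, asks what the disease does to these genes. In EAE 9 of the 10 genes rose, between 2.57-fold (Gbp7) and 10.8-fold (Iigp1), against 20.2% of all 16749 genes tested that were called higher, 16.7% called lower and 37.0% called in either direction. Calls are at an adjusted p under 0.05 (edgeR quasi-likelihood test, Benjamini-Hochberg over all genes tested). The median of the 10 was 1.91 on the log2 scale, where that of all genes was 0.01. The EAE and Control libraries did not overlap for any of the 10 genes, as was so for 46.6% of all genes.

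Among the GBPs the largest rises were those of Gbp2, which helps to break pathogen vacuoles and bacterial membranes, and Gbp6. Gbp2 (gene 14469, chromosome 3 from 142620663 to 142638008 in mm10, plus strand, 11 exons) had 73.9, 55.7 and 67.1 CPM in EAE, against 6.04, 6.58 and 7.73 CPM in Control. Every EAE library thus lay far above every Control, a rise of 9.66-fold (log2 3.27, SE 0.40, edgeR adjusted p = 0.000162). Gbp6 (gene 100702, chromosome 5 from 105270702 to 105293699, minus strand) had 15.7, 15.3 and 14.7 CPM in EAE, against 1.51, 1.55 and 1.93 CPM in Control. It rose by 9.13-fold (log2 3.19, SE 0.42, edgeR adjusted p = 0.000249), and the EAE libraries differed among themselves by less than for any other of the 10 genes. Its level is uncertain, since 70.3% of the 50-base stretches of its transcripts, the read length of the study, also occur in other genes, mainly Gbp10 at 62.3%.

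Gbp3, Gbp5 and Gbp7 lie side by side with Gbp2 on chromosome 3 and rose less. Gbp3 had 30.9, 29.5 and 27.4 CPM in EAE, against 7.82, 6.90 and 8.85 CPM in Control (log2 1.90, SE 0.26, edgeR adjusted p = 0.000307). Gbp5, which promotes assembly of the NLRP3 inflammasome, had 18.6, 16.6 and 16.2 CPM in EAE, against 5.03, 4.24 and 4.29 CPM in Control (log2 1.92, SE 0.37, edgeR adjusted p = 0.00217). Gbp7, which has been linked to delivery of the phagocyte oxidase to vacuoles, had 29.1, 25.4 and 24.1 CPM in EAE, against 9.89, 9.59 and 11.1 CPM in Control (log2 1.36, SE 0.26, edgeR adjusted p = 0.00197). These 3 genes had little room for shared reads, with 0.201% to 3.83% of their 50-base stretches found in other genes.

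Gbp4, on chromosome 5 next to further GBP genes, was the exception. It had 10.8, 11 and 9.51 CPM in EAE, against 7.09, 7.02 and 4.98 CPM in Control. The groups did not overlap, but the difference of 1.64-fold (log2 0.71, SE 0.34, 95% interval -0.04 to 1.47) missed the threshold with an edgeR adjusted p of 0.125. The fit takes its spread from all 9 libraries, and for Gbp4 the treated libraries varied more than the EAE or Control libraries. The same held for the other genes described here, and Gbp4 had the smallest EAE difference among them. Without treated replicate 1 the EAE difference was called at an edgeR adjusted p of 0.0163, without treated replicate 3 at 0.0404, and with only the EAE and Control libraries in the fit at 0.00509.

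The IRG genes rose as well. Iigp1, the effector, had the largest fold of the 10 genes, with 37.5, 31.5 and 35.3 CPM in EAE, against 3.09, 3.32 and 3.21 CPM in Control. This gene (gene 60440, chromosome 18, 3 exons) rose by 10.8-fold (log2 3.44, SE 0.51, edgeR adjusted p = 0.0005). Igtp, a regulator found on the endoplasmic reticulum and also known as Irgm3, had 44.8, 38.2 and 42.0 CPM in EAE, against 7.09, 6.14 and 8.49 CPM in Control, a rise of 5.75-fold (log2 2.52, SE 0.40, edgeR adjusted p = 0.000757). The other 2 regulators rose less. Irgm1, needed in mice for resistance to mycobacteria, had 58.3, 49.5 and 54.0 CPM in EAE, against 15.0, 15.1 and 19.2 CPM in Control (3.29-fold, log2 1.72, SE 0.26). Irgm2, which restrains caspase-11 in mouse macrophages, had 32.3, 31.0 and 29.9 CPM in EAE, against 9.30, 7.94 and 8.81 CPM in Control (3.58-fold, log2 1.84, SE 0.31). Igtp and Irgm2 share 10.6% and 6.21% of their own 50-base stretches with each other. In bulk tissue a change in the number of cells that make a transcript and a change in transcript per cell cannot be told apart.

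**Figure D2:**
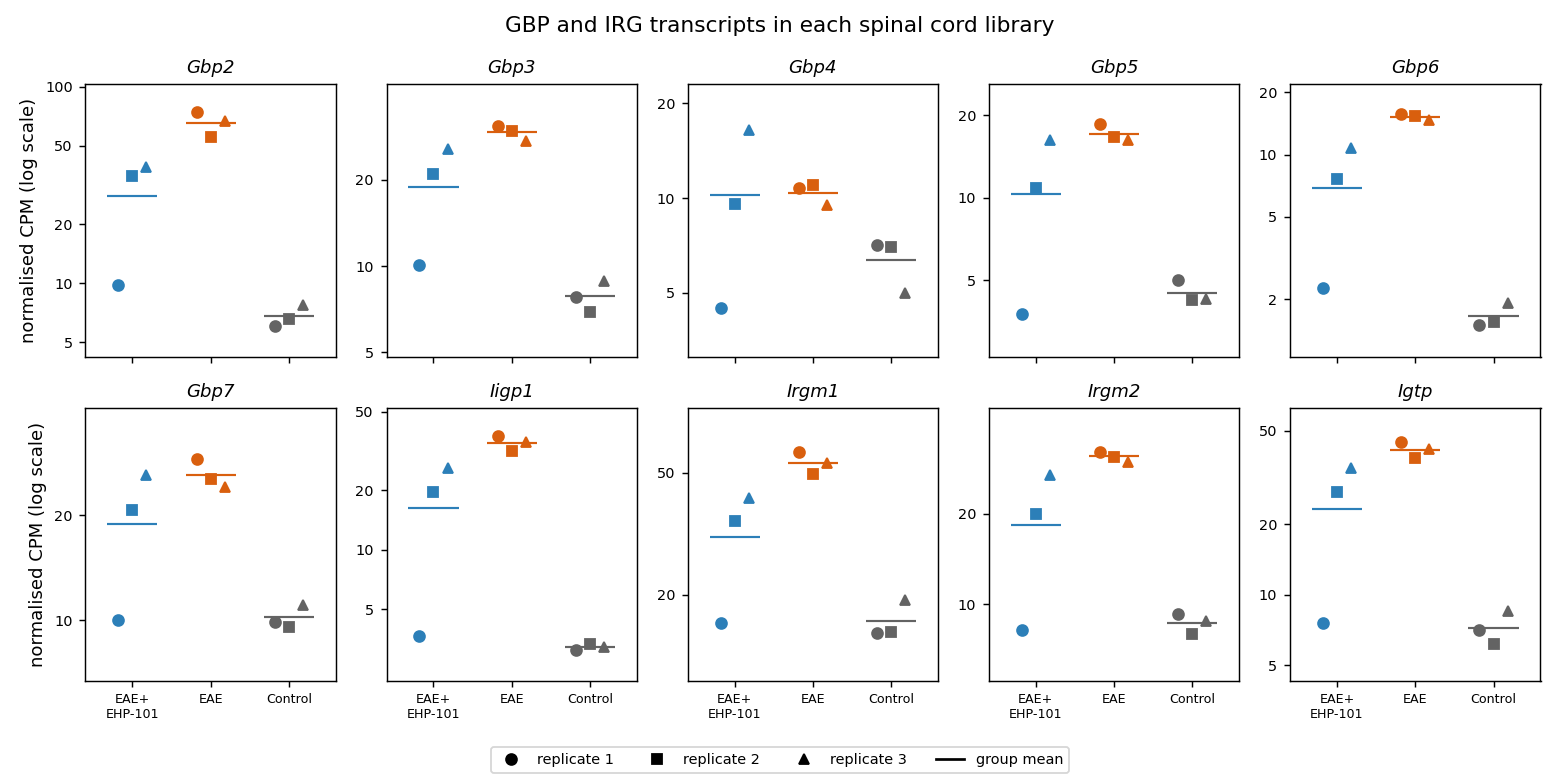
Normalised CPM (log axis) of the 10 genes in each library, with symbols for replicates and a line for the group mean. All 3 EAE libraries lie above all 3 Control libraries for each gene, and treated replicate 1 (circle, left) lies at 2.27 to 16.2 CPM near the Controls while treated replicates 2 and 3 lie higher.

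Treated mice were compared with EAE mice to ask what the compound changed in the diseased cord. None of the 10 genes passed (0 of 10), against 5.24% of all genes called in either direction (4.81% lower). At an unadjusted p under 0.05, 7 of the 10 were lower in treated mice, where 16.2% of all genes had such a p in either direction. With the Wald test of DESeq2 0 of the 10 passed after adjustment, where 1077 of all genes did, and 3 had an unadjusted p under 0.05. The median was -0.78 on the log2 scale, where that of all genes was 0.00. For 8 of the 10 genes the treated and EAE libraries did not overlap, as was so for 27.6% of all genes. Gbp5 is among the 8, though its highest treated and lowest EAE library both stood at 16.2 CPM as rounded.

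The 3 treated libraries were far from alike. For all 10 genes replicate 1 was the lowest and replicate 3 the highest of the 3, and replicate 1 was the lowest for 38.3% of all genes tested. The highest treated library exceeded the lowest by 2.54-fold to 7.10-fold, against 1.07-fold to 1.33-fold within EAE and 1.08-fold to 1.42-fold within Control. Treated replicate 1 was at or below the highest Control for 6 genes, and below every Control for Gbp4 and Gbp5. Treated replicates 2 and 3 lay above every Control for all 10 genes. Replicate 2 lay below every EAE library for 9 genes (not Gbp4: 9.57 CPM against 9.51 to 11 CPM in EAE) and replicate 3 for 8 (not Gbp4 and Gbp7). For Gbp5 the gap of replicate 3 from the lowest EAE library was too small to show, both being 16.2 CPM as rounded.

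Iigp1 had the largest ratio of highest to lowest treated library, 7.10-fold, with 3.65, 19.5 and 25.9 CPM in treated replicates 1, 2 and 3, against 31.5 to 37.5 CPM in EAE. Its difference between treated and EAE mice was log2 -1.09 (SE 0.43, 95% interval -2.04 to -0.14, edgeR adjusted p = 0.228). Gbp2 had 9.76, 35.1 and 38.8 CPM in treated mice, against 55.7 to 73.9 CPM in EAE. This was the gene nearest to the threshold (log2 -1.23, SE 0.35, 95% interval -2.00 to -0.47, edgeR adjusted p = 0.0711), with all 3 treated libraries below all 3 EAE libraries. Gbp6 had 2.27, 7.63 and 10.8 CPM in treated mice, against 14.7 to 15.7 CPM in EAE (log2 -1.14, SE 0.36, edgeR adjusted p = 0.107).

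The regulators of the IRG family showed the same order of libraries. Irgm1 had 16.2, 34.9 and 41.3 CPM in treated mice, against 49.5 to 58.3 CPM in EAE (log2 -0.81, SE 0.25, edgeR adjusted p = 0.0999). Irgm2 had 8.19, 20.0 and 27.0 CPM in treated mice, against 29.9 to 32.3 CPM in EAE (log2 -0.76, SE 0.29, edgeR adjusted p = 0.203). Igtp had 7.58, 27.4 and 34.8 CPM in treated mice, against 38.2 to 44.8 CPM in EAE (log2 -0.84, SE 0.37, edgeR adjusted p = 0.282). In each of the 3 the treated and EAE libraries did not overlap, and treated replicate 1 lay inside the Control range.

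The remaining GBPs were closest to EAE. Gbp3 had 10.1, 21 and 25.6 CPM in treated mice, against 27.4 to 30.9 CPM in EAE (log2 -0.63, SE 0.24, edgeR adjusted p = 0.202). Gbp5 had 3.77, 10.9 and 16.2 CPM in treated mice, against 16.2 to 18.6 CPM in EAE (log2 -0.74, 95% interval -1.49 to 0.02, edgeR adjusted p = 0.326). Gbp7 had 10, 20.7 and 26.1 CPM in treated mice, against 24.1 to 29.1 CPM in EAE (log2 -0.47, 95% interval -1.01 to 0.07, edgeR adjusted p = 0.396), so its treated replicate 3 lay inside the EAE range. Gbp4 had 4.48, 9.57 and 16.5 CPM in treated mice, against 9.51 to 11 CPM in EAE (log2 -0.04, 95% interval -0.77 to 0.69, edgeR adjusted p = 0.97). Treated replicate 3 thus held the highest Gbp4 level of all 9 libraries and treated replicate 1 the lowest.

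The calls between treated and EAE mice hung on which treated library was left out. Without treated replicate 1 the differences were smaller, with a median of log2 -0.41, but 4 genes passed, where 547 of all genes were called lower in place of 805. The 4 were Gbp2 (log2 -0.82, edgeR adjusted p = 0.0035), Gbp6 (log2 -0.72, 0.0192), Iigp1 (log2 -0.61, 0.0166) and Irgm1 (log2 -0.50, 0.0451). Without treated replicate 3 the differences were larger and again 4 passed, where 790 of all genes were called lower. The 4 were Gbp2 (log2 -1.55, edgeR adjusted p = 0.043), Gbp6 (log2 -1.62, 0.0235), Irgm1 (log2 -1.08, 0.0327) and Irgm2 (log2 -1.14, 0.0347). Without treated replicate 2 none of the 10 passed, where 501 of all genes were called lower. Gbp4 had a difference of log2 0.32 without treated replicate 1, in place of -0.04, and missed the threshold (edgeR adjusted p = 0.645).

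**Figure D3:**
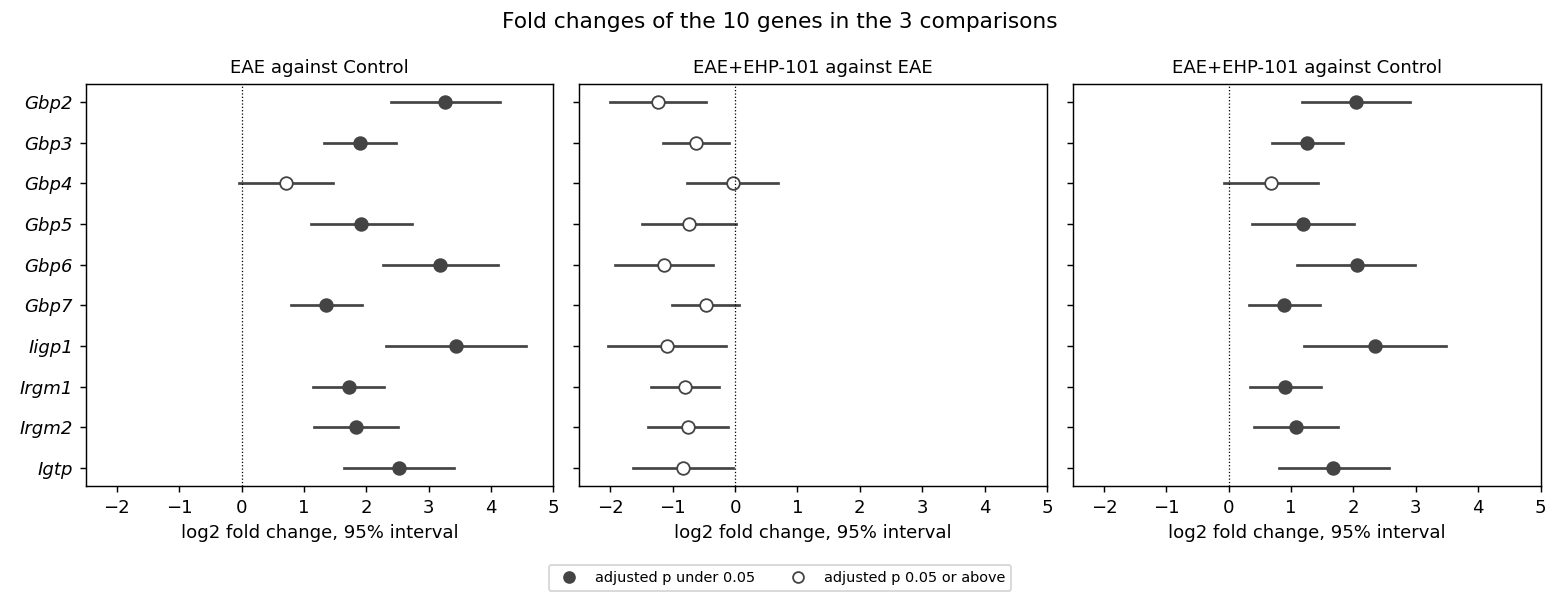
Log2 fold changes with 95% intervals for the 10 genes in the 3 comparisons (filled, adjusted p under 0.05). In EAE against Control 9 are called, in EAE+EHP-101 against EAE none are although 7 intervals lie below 0, and in EAE+EHP-101 against Control 9 are called.

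Against Control, the third comparison, 9 of the 10 genes were higher in treated mice, against 9.96% of all genes called higher, 9.82% called lower and 19.8% called in either direction. Folds ran from 1.86-fold (Gbp7) to 5.08-fold (Iigp1, log2 2.35, SE 0.52, edgeR adjusted p = 0.0128), and the median was 1.23 on the log2 scale. Gbp4 was at log2 0.68 (SE 0.34, edgeR adjusted p = 0.187). Only Gbp2, Gbp3, Gbp6 and Iigp1 had all 3 treated libraries above all 3 Controls, so 4 of 10 did not overlap, against 36.5% of all genes. The comparison shares its treated libraries with the second comparison and its Control libraries with the first.

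The count moved with single libraries, as did that over all genes (3314 called in either direction). Without treated replicate 1 all 10 genes were called, with a median of log2 1.57, where 3382 of all genes were called. Without treated replicate 2 the count was 1, where 629 of all genes were called, and without treated replicate 3 it was 3, where 1016 were. Leaving out Control replicate 1 gave 5 (2392 of all genes), Control replicate 2 gave 4 (1923) and EAE replicate 1 gave 5 (2511). Gbp5, called at an edgeR adjusted p of 0.046, was the closest to the threshold.

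To set the treated libraries on 1 scale, each was placed between the Control mean (0%) and the EAE mean (100%) on log2 CPM. Leaving Gbp4 aside, treated replicate 1 stood at -13.2% (Gbp5) to 19.2% (Gbp3) with a median of 3.1%. Treated replicate 2 stood at 63.8% (Irgm1) to 76.3% (Igtp) with a median of 72.7%. Treated replicate 3 stood at 77.1% (Gbp2) to 100% (Gbp7) with a median of 88.9%. Gbp4, whose EAE difference was small, stood at -66.7%, 83.1% and 190.5%. For the other 9 genes the range of each upper library lay apart from that of replicate 1.

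**Figure D4:**
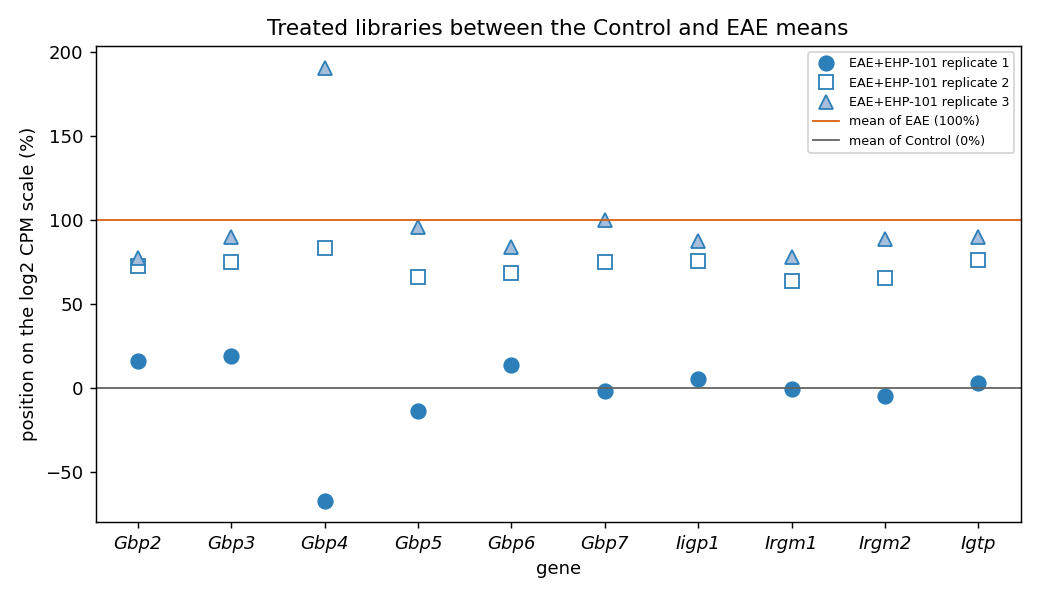
Position of the 3 treated libraries between the Control mean (0%) and the EAE mean (100%) on log2 CPM, for each gene. Replicate 1 lies around the Control line and replicates 2 and 3 nearer the EAE line, except Gbp4, where replicate 3 stands at 190.5%.

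Levels were compared between genes per length, as RPKM (CPM per kilobase of the gene length in the deposited table). The place of Gbp6 is uncertain in every group. Of its 50-base stretches 70.3% occur in other genes, and how such reads were counted is not stated. In treated mice Irgm1 was highest at 13.8 ± 5.86 RPKM and Gbp6 lowest at 1.6 ± 0.995 RPKM (SD, n = 3), and each gene overlapped the next in the order. In EAE Gbp2 stood at 26.7 ± 3.75 and Irgm1 at 24.2 ± 1.97 RPKM, and these first 2 overlapped. Igtp (20.6 ± 1.64 RPKM) came after them, then Iigp1 (11.1 ± 0.983) and Gbp3 (11.1 ± 0.664), which overlapped each other, and Irgm2 (8.85 ± 0.351). At the low end were Gbp5 (5.68 ± 0.421), Gbp7 (4.72 ± 0.469), Gbp6 (3.53 ± 0.125) and Gbp4 (2.30 ± 0.180 RPKM), none of which overlapped its neighbour.

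In Control cord the order was another. Irgm1 was highest at 7.37 ± 1.08 RPKM and apart from the rest. Igtp (3.58 ± 0.583), Gbp3 (2.98 ± 0.369), Gbp2 (2.76 ± 0.351) and Irgm2 (2.47 ± 0.195 RPKM) followed, each overlapping the next. Gbp7 stood at 1.84 ± 0.145, Gbp5 at 1.5 ± 0.145 and Gbp4 at 1.4 ± 0.265 RPKM, and Gbp5 and Gbp4 overlapped. Iigp1 (1.03 ± 0.0375) and Gbp6 (0.386 ± 0.0540 RPKM) were the lowest. Iigp1 thus held place 4 of 10 in EAE and place 9 in Control, and Gbp2 place 1 in EAE and place 4 in Control.

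The wider pathway was followed in lists of related genes. Over all genes tested, 20.2% were called higher and 16.7% lower in EAE against Control. In treated against EAE mice 0.430% of all genes were called higher and 4.81% lower. Of 15 other GBP and IRG genes 12 were tested, and 10 rose in EAE, with a median of log2 2.59. Gbp10, whose reads can be split with Gbp6, had 241, 164 and 247 counts in EAE, against 0, 1 and 5 in Control. Gm4951, an IRG gene on chromosome 18, had 226, 199 and 245 counts in EAE, against 8, 8 and 7 in Control. Ifi47 (log2 2.97, SE 0.37) and Gm12250, known as Irgb10 (log2 3.28, SE 0.47), rose as well. Gbp11 was at log2 0.03 (SE 0.17, edgeR adjusted p = 0.913), and Tgtp1 missed the threshold (0.0602). Between treated and EAE mice 0 of these 12 passed with edgeR and 0 with DESeq2, 7 of them being lower at an unadjusted edgeR p under 0.05, and 2 passed without treated replicate 1. Their sum was 12.4, 33 and 44.5 CPM in treated replicates 1, 2 and 3, against 50.2 to 58.8 CPM in EAE and 12.4 to 13.3 CPM in Control.

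Of 5 other interferon-induced genes, all GTPase genes except Rnf213, 3 were tested. In EAE Mx1, an antiviral GTPase, rose (log2 2.94, SE 0.50, edgeR adjusted p = 0.00105), as did the large ubiquitin ligase Rnf213 (log2 0.72, SE 0.16, edgeR adjusted p = 0.00486). Mx2 was at log2 0.44 (edgeR adjusted p = 0.0788). Between treated and EAE mice 0 of the 3 passed with edgeR, 0 with DESeq2 and 0 at an unadjusted edgeR p under 0.05.

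Ifng, the ligand, was near the limit of detection and was not tested. It had 0, 3 and 3 counts in treated replicates 1, 2 and 3, against 6, 3 and 3 in EAE and 0 in each Control, where a count of 0 allows up to 3 counts, or 0.0949 to 0.0985 CPM in Controls. Its receptor chains Ifngr1 (log2 0.99, SE 0.11) and Ifngr2 (log2 0.38, SE 0.06) rose in EAE, and both fell in treated against EAE mice (log2 -0.68, edgeR adjusted p = 0.00456, and log2 -0.27, edgeR adjusted p = 0.0212). Without treated replicate 1, 1 of the 4 receptor genes tested was called lower in place of 2. Ifnar2, a type I interferon receptor chain, rose in EAE (log2 0.69, SE 0.12), and Ifnar1 was at log2 0.05 (edgeR adjusted p = 0.583).

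Of 8 signalling factors 4 rose in EAE. Irf1 rose (log2 1.91, SE 0.25), Irf8, a factor of myeloid cells, most (log2 2.71, SE 0.25), and Irf9 by log2 0.98 (SE 0.18). The kinase genes Jak1 and Jak2 were at log2 -0.07 and -0.03 (edgeR adjusted p = 0.466 and 0.714).

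Between treated and EAE mice 2 of the 8 factors passed, where 4.81% of all genes were called lower. The median of the 8 was log2 -0.12, and 3 were lower at an unadjusted edgeR p under 0.05. Of the 10 GTPase genes 0 passed, but their median was log2 -0.78 and 7 were lower at that unadjusted p. A difference between the lists was not itself tested. Irf1 fell to 6.91, 15.4 and 16.0 CPM in treated mice, against 26.2, 23.1 and 23.8 CPM in EAE (log2 -0.93, SE 0.24, edgeR adjusted p = 0.0447). Irf8 fell to 4.83, 10.9 and 10.3 CPM in treated mice, against 23.6, 25.0 and 22.4 CPM in EAE (log2 -1.45, SE 0.23, edgeR adjusted p = 0.00438). The count was also 2 without treated replicate 1, and 1 without Control replicate 1. Treated replicate 1 was the lowest treated library for both.

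Of 10 feedback and target genes of interferon gamma 8 were tested and 8 rose in EAE (median log2 2.75). They included the peptide transporter gene Tap1 (log2 2.59, SE 0.30), the feedback inhibitor gene Socs3 (log2 2.05, SE 0.24), the immunoproteasome gene Psmb9 (log2 2.90, SE 0.37) and the chemokine gene Cxcl10 (log2 3.75, SE 0.50). In treated against EAE mice 1 of the 8 fell, Socs3 (log2 -1.31, edgeR adjusted p = 0.00725), and 3 did without treated replicate 1. Psmb9 had 2.14, 6.99 and 8.04 CPM in treated mice, against 12.3, 12.7 and 11.8 CPM in EAE (log2 -1.09, edgeR adjusted p = 0.0827).

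Genes that act with GBPs were followed too. Of 8 caspase-11 and inflammasome genes 7 rose in EAE, among them Pycard, the adaptor ASC (log2 2.32, SE 0.21), Casp4, which encodes mouse caspase-11 (log2 3.07, SE 0.32), the pore-forming Gsdmd (log2 2.05, SE 0.23) and Il1b (log2 4.58, SE 0.57). In treated against EAE mice 5 of the 8 fell, where 4.81% of all genes were called lower. Pycard had 3.77, 6.69 and 6.76 CPM in treated mice, against 14.1, 14.5 and 11.2 CPM in EAE (log2 -1.21, edgeR adjusted p = 0.00546). Casp4 had 0.960, 1.94 and 2.47 CPM in treated mice, against 6.04, 5.93 and 4.15 CPM in EAE (log2 -1.58, edgeR adjusted p = 0.00755). Il1b (log2 -2.15), Gsdmd (log2 -0.91) and Nlrp3 (log2 -0.97) fell as well, at edgeR adjusted p of 0.0136 to 0.0308, and the count was also 5 without treated replicate 1.

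The autophagy conjugation genes, whose products load GBPs and IRGs onto vacuoles, changed little in size. Of 11 tested 5 rose in EAE, led by Map1lc3a (log2 0.36, SE 0.05), with Atg5 at log2 0.25, Map1lc3b at 0.20 and Sqstm1 at 0.17, and the list's median was log2 0.17. Without Control replicate 1, the library with muscle markers, 1 of the 11 was called in place of 5. In treated against EAE mice 0 of the 11 passed with edgeR, 0 with DESeq2, and 1 had an unadjusted edgeR p under 0.05. Some GBPs are anchored to membranes by a prenyl group, and of 7 prenylation genes 3 fell in EAE, Pggt1b (log2 -0.50, SE 0.08), Ggps1 (log2 -0.37, SE 0.06) and Fdps (log2 -0.63, SE 0.11), while Rce1 rose (log2 0.24, SE 0.08). No gene of this list was called higher in EAE with DESeq2 (0 of 7) or without Control replicate 1 (0 of 7). Fdps, an enzyme of sterol and isoprenoid synthesis, was higher in treated than in EAE mice (log2 0.47, edgeR adjusted p = 0.0336) and missed the threshold without treated replicate 1.

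**Figure D5:**
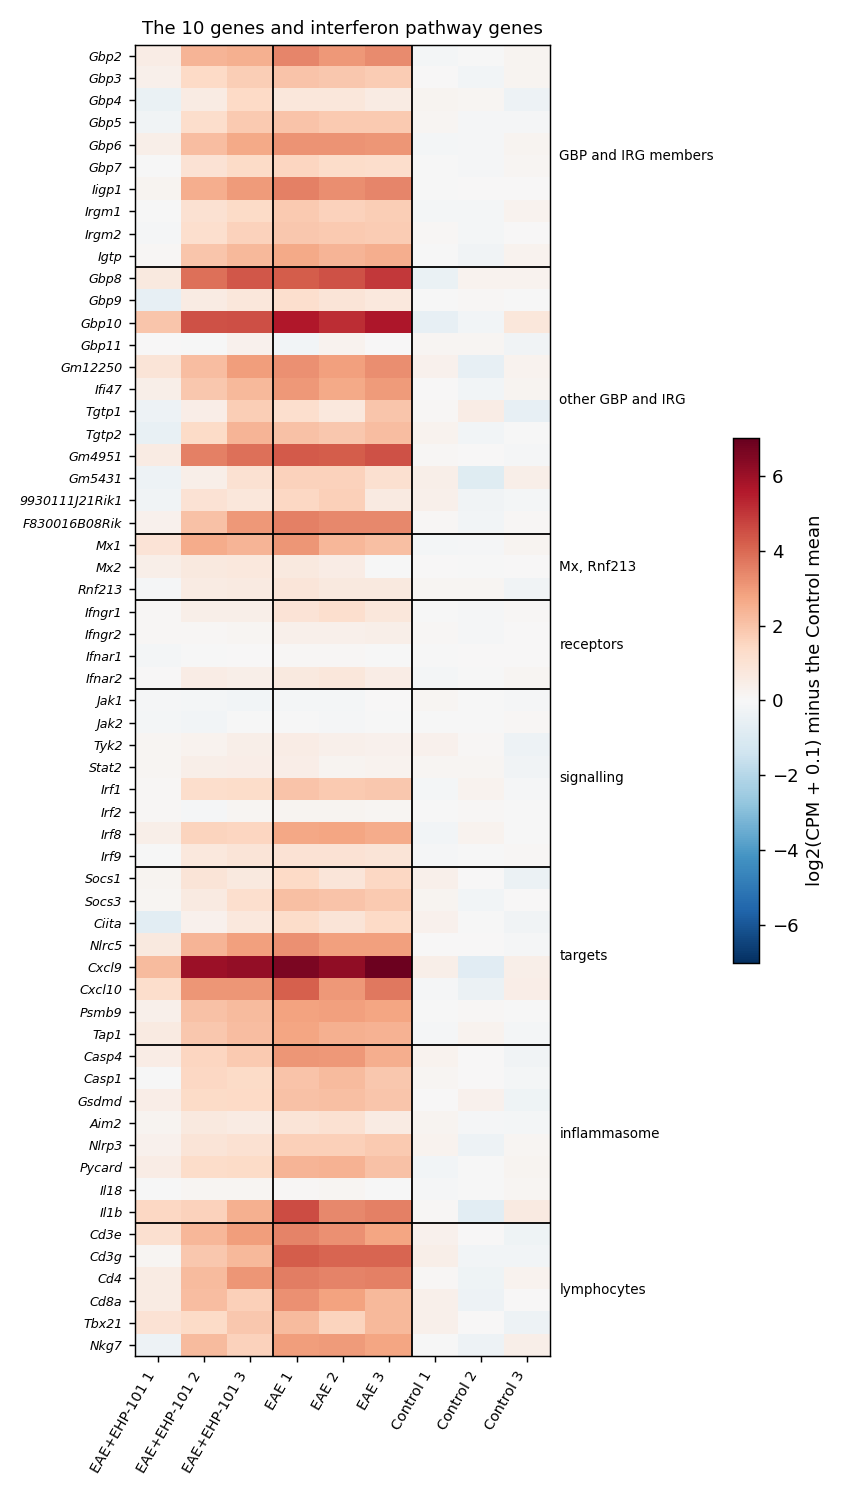
Log2(CPM + 0.1) minus the Control mean for the 10 genes and all tested genes of 7 related lists, by library. In most rows treated replicate 1 is pale and treated replicates 2 and 3 stand between it and EAE. Exceptions include Mx2, with treated replicates 2 and 3 above every EAE library, and Gbp4, with treated replicate 3 above them. Jak1 and Jak2 (log2 -0.07 and -0.03 in EAE against Control) stay near the Control colour in every library.

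Markers of other cells were read in the same libraries. Their counts stand against 20.2% of all genes called higher and 16.7% lower in EAE, and 4.81% called lower in treated than in EAE mice. The 7 lymphocyte markers (Cd3e, Cd3g, Cd4, Cd8a, Tbx21, Ncr1, Nkg7) summed to 0.928, 3.78 and 5.25 CPM in treated replicates 1, 2 and 3, against 8.79 to 10.8 CPM in EAE and 0.285 to 0.624 CPM in Control. All 7 had counts, 6 were tested and 6 rose in EAE, and Ncr1 was at 0 in 5 libraries. Between treated and EAE mice 1 of the 6 fell, Cd3g (log2 -2.71, edgeR adjusted p = 0.00419). The 5 monocyte and macrophage markers summed to 24.8, 48.8 and 69.2 CPM in treated mice, against 394 to 555 CPM in EAE and 8.76 to 15.1 CPM in Control, and 4 of the 5 rose in EAE. Nearly all of that sum was Lyz2, at 377 to 542 CPM in EAE. Ly6c2 was at log2 -1.51 in EAE against Control (edgeR adjusted p = 0.237). It had 144, 3 and 11 counts in Control replicates 1, 2 and 3, against 30, 20 and 8 in EAE. The negative value of Ly6c2 thus rested on Control replicate 1, the library with muscle markers. Without that library 3 of the 5 markers were called higher in EAE, and 5 were higher at an unadjusted edgeR p under 0.05. In treated against EAE mice 3 of the 5 fell, as many as without treated replicate 1.

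Resident cells were read the same way. The 5 microglia markers summed to 319, 440 and 426 CPM in treated mice, against 589 to 810 CPM in EAE and 269 to 338 CPM in Control, with 3 of the 5 higher in EAE and 3 lower in treated than in EAE mice. The 5 endothelial markers summed to 80.4, 90.0 and 91.6 CPM in treated mice, against 40.3 to 71.8 CPM in EAE and 90.8 to 143 CPM in Control, with 5 of 5 lower in EAE. The 5 astrocyte markers summed to 6635 to 7051 CPM in treated mice, against 7741 to 9606 CPM in EAE and 5814 to 7328 CPM in Control. Gfap, Aqp4 and Aldh1l1 rose in EAE (3 of 5), whereas Slc1a2 (log2 -0.13) and Gja1 (log2 -0.22) missed the threshold with edgeR, and DESeq2 called 2 of the 5 lower. In treated against EAE mice 1 of the 5 fell, and 0 did without treated replicate 1 or without Control replicate 1, where 3 fell with DESeq2 over all libraries. No marker of these 3 lists was at 0. The part of these cells in the levels of the 10 genes was not tested.

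The genes most like the 10 were named by the root mean square distance between their centred log2 CPM and the mean of the 10, over the 9 libraries. The 10 themselves lay at 0.15 (Gbp5) to 0.63 (Gbp4) from that mean. Of the other genes, among those averaging 1 or more on the log2 CPM scale, the nearest were Epsti1 and Lst1 (0.17 each), Irf5 (0.21), B2m and Ddx60 (0.22 each) and AW112010 (0.23). B2m, which encodes the light chain of MHC class I, had 163, 471 and 470 CPM in treated replicates 1, 2 and 3, against 676 to 761 CPM in EAE and 106 to 136 CPM in Control. Irf5, a transcription factor of the interferon regulatory family, had 3.97, 8.89 and 9.86 CPM in treated mice, against 14.4 to 18.9 CPM in EAE and 3.35 to 4.0 CPM in Control. The likeness is a description over libraries that fall in 3 groups.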

How the data were processed

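RNA sequencing was done on 9 spinal cord libraries, 3 each of EAE+EHP-101, EAE and Control mice. The deposited values were raw read counts per gene under Entrez identifiers, per the file headers. Poly-A selected stranded libraries were read as single ends of 50 bases, per the labels' protocols. Per the submitters' processing notes the build was mm10, and the tools listed are featureCounts 1.6.1, HISAT2 2.1.0, Trimmomatic 0.36 and DESeq2 1.20.0. How reads of several loci, or of either strand, were counted is not stated. Symbols came from RefSeq (GRCm38.p6) for 25275 of 27179 identifiers.

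In R 4.3.3, edgeR 4.0.16 (filterByExpr, TMM factors, quasi-likelihood test, 1 mean per group over 9 libraries) tested 16749 genes. Calls are at a Benjamini-Hochberg adjusted p under 0.05, intervals are 95%, and SE is the log2 fold change over the root of F. CPM use TMM-scaled totals, and log2 CPM a prior count of 2. The pipeline was tested on simulated data. Shared 50-base stretches were counted in GENCODE M21 transcripts. Alternatives were other scalings, no filter, the DESeq2 1.42.0 Wald test, a replicate block, only the groups compared, removal of each library's gene length trend, and each library left out. Deviations of same-numbered libraries from their group means had correlations of -0.19 to 0.12.

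The members and lists were chosen with earlier results of these data known. Named are all 10 members, up to 4 genes of smallest p per list and comparison, Ifng and Irf1, and the 6 genes most like the members. Lymphocyte and neuron markers are named in full to define their lists. Gbp11, Tgtp1, Jak1, Jak2, Ncr1, Ly6c2, the astrocyte genes and Gsdmd in EAE+EHP-101 against EAE were added after values were seen. 1 signalling gene is not reported here.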

Additional observations from a re-analysis of the deposited data

How the results depend on the processing

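Of the 10 genes, 9 or 10 were called in EAE against Control under every alternative run, leaving out each library included (9 to 10). For EAE+EHP-101 against EAE the count of 0 became 1 with no filter on low counts (Gbp2, edgeR adjusted p = 0.0356) and ran from 0 to 4 with 1 library left out. For EAE+EHP-101 against Control the count of 9 became 5 with only those 2 groups in the fit (2518 of all genes). It was 7 with the gene length trend removed (1554) and 8 with DESeq2 (3657), and ran from 1 to 10 with 1 library left out. Gbp4 in EAE+EHP-101 against EAE changed from log2 -0.04 to 0.02 without EAE replicate 2, 0.32 without EAE+EHP-101 replicate 1 and 0.01 without EAE+EHP-101 replicate 2, ran from -0.57 to 0.32 over all libraries left out in turn, and the cause was not tested. Over all genes, calls in EAE+EHP-101 against Control were 3314, and 1554 with the length trend removed, and the share called higher was 50.4%, and 62.3% under library totals. With 1 library left out all calls ran from 370 to 1170 around 877 for EAE+EHP-101 against EAE, from 629 to 3739 for EAE+EHP-101 against Control and from 4378 to 7095 around 6191 for EAE against Control. Under library totals 10 of the 10 genes kept their place in the RPKM order in each group. Correlations of same-numbered libraries' deviations from group means ran from -0.19 to 0.12, and 1 of 9 was over 0.1. Those of differently numbered libraries ran from -0.17 to 0.25. With so few libraries per group these values cannot exclude a batch shared by replicate number. With the replicate number as a block 9 of the 10 genes were called in EAE against Control (5345 of all genes). The block gave 0 in EAE+EHP-101 against EAE (722) and 6 in EAE+EHP-101 against Control (2272).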
